A study of Oryza sativa with 12 samples.

Results

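The difference between *RGB1Ri-5* and *WYJ8* caryopses was not the same at the 2 stages sequenced. Described here are genes whose genotype difference changed direction between 10 and 5 days after flowering (DAF), or passed the limits at 1 stage only. Members were found among the 21470 genes that averaged 1 FPKM or more (read fragments scaled to transcript length and to the mapped reads of the library). The interaction was the genotype difference (*RGB1Ri-5* minus *WYJ8*) at 10 DAF minus that at 5 DAF, on log2(FPKM + 1). A difference was called at an adjusted p-value under 0.05 and an absolute log2 value of at least 1. A gene reversed when it was called at both stages in opposite directions. A gene was placed at 1 stage only when it was called there, was not called at the other stage, and its interaction was called. Each rule was applied to FPKM as deposited and after median-of-ratios rescaling, in which each library is divided by its median ratio to the average library. Of the 21470 genes, 2473 (11.5%) fell in the same class under both scalings, with 346 that reversed and 2127 at 1 stage only. A further 740 genes were called in the same direction at both stages under both scalings.

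The 4 groups, with 3 libraries each and 12 in all, were *RGB1Ri-5* caryopses at 10 DAF, *WYJ8* caryopses of that stage, *RGB1Ri-5* caryopses at 5 DAF and the *WYJ8* caryopses of that stage. *WYJ8* is the cultivar Wuyujing 8, the wild-type background. *RGB1Ri-5* is a line of that cultivar in which *RGB1*, the gene of the β subunit of the heterotrimeric G protein, is targeted by an RNA interference hairpin driven by the maize ubiquitin promoter. It is 1 transgenic line, so an effect of the hairpin and an effect of that line cannot be told apart, and that promoter is not restricted to the grain. The study names the sequenced material grains in its methods and caryopsis in its results, so whether husks were included is not settled. The word caryopses is used here. In samples of many tissues, fewer cells of a type and less RNA per cell cannot be told apart.

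A heterotrimeric G protein couples receptors at the plasma membrane to responses inside the cell, and its β subunit acts as a dimer with a γ subunit. In rice, G-protein subunits are known for effects on grain size. After fertilisation the maternal tissues of the rice caryopsis (nucellus, seed coat and pericarp) are gradually lost or flattened, while the endosperm cellularises and then fills with starch and storage protein. Transcript levels in a developing caryopsis therefore differ between stages within a genotype, and the 2 stages are separate readings of the genotype difference.

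Between 27055 and 29576 genes were listed per library. The 100 genes with the highest FPKM held 48.7 to 52.8% of the summed FPKM in the *WYJ8* libraries at 10 DAF, and 12.9 to 22.4% in the other 9 libraries. The number of reads is not part of the files. Relative depths estimated from the steps between low values were 0.892 to 1.13 of the mean. Across the tested genes, the *RGB1Ri-5* libraries at 10 DAF had Pearson's r of 0.890 to 0.976 with the *WYJ8* libraries at 5 DAF, against 0.726 to 0.906 with the *WYJ8* libraries at their own stage. Replicate 2 of *RGB1Ri-5* at 10 DAF stood apart, with r of 0.958 to 0.976 with the *WYJ8* libraries at 5 DAF and of 0.899 to 0.950 with the other replicates of its own group. Genes are the points of these correlations and are not independent of each other. The class counts and the counts of called factors below are also given without this library.

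As deposited, the interaction was called as higher at 10 DAF for 8882 genes (41.4% of those tested) and as lower at 10 DAF for 1491 genes (6.94%). After rescaling, 2370 genes (11.0%) were called higher and 2858 (13.3%) lower. The median interaction over all tested genes was 0.86 as deposited and -0.05 after rescaling, so the balance of directions followed the scaling. The median genotype difference was 0.80 at 10 DAF and -0.07 at 5 DAF as deposited, against 0.01 at 10 DAF and 0.00 at 5 DAF after rescaling. The scaling factors were 0.592 to 0.634 in the *WYJ8* libraries at 10 DAF and 1.08 to 1.31 in the other libraries. For this reason the classes are described by the genes that both scalings placed alike.

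**Figure D1:**
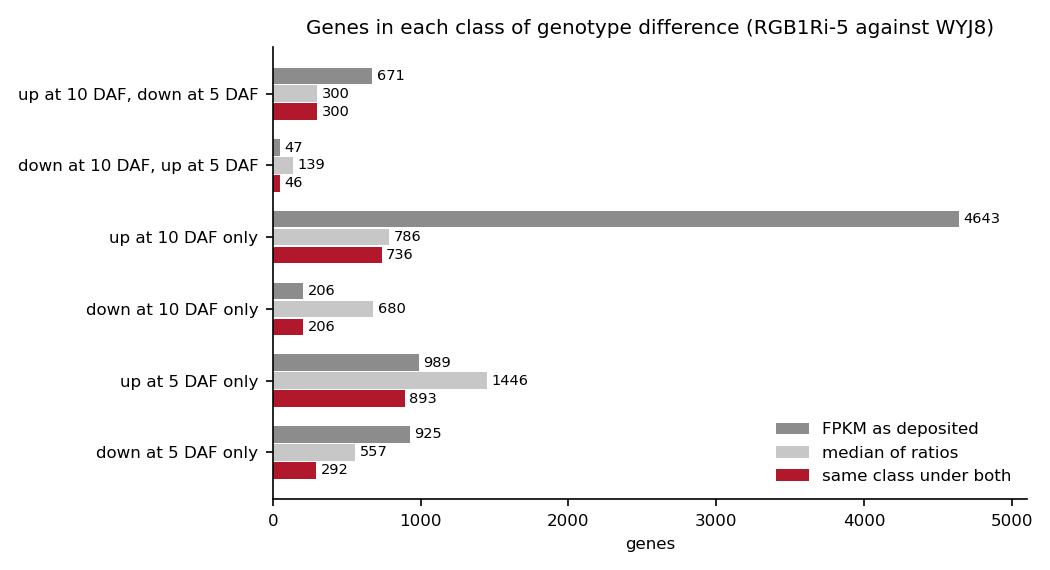
Number of genes (horizontal axis) in each class of genotype difference, *RGB1Ri-5* against *WYJ8*, for FPKM as deposited, after median-of-ratios rescaling, and in the same class under both. Genes up at 10 DAF only number 4643 as deposited and 736 under both scalings, while the 206 genes down at 10 DAF only as deposited are all retained.

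With a smaller excess after rescaling, most genes that reversed were higher in *RGB1Ri-5* at 10 DAF and lower in it at 5 DAF. In that direction, 300 genes (1.40% of those tested) were in the class under both scalings, of 671 as deposited and 300 after rescaling. The opposite reversal, lower in *RGB1Ri-5* at 10 DAF and higher at 5 DAF, held for 46 genes (0.214%), of 47 as deposited and 139 after rescaling. Of the 671 genes as deposited, 265 became genes down at 5 DAF only after rescaling and 50 became genes up at 10 DAF only. Without replicate 2 of *RGB1Ri-5* at 10 DAF, the counts under both scalings were 291 and 42 genes.

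**Figure D2:**
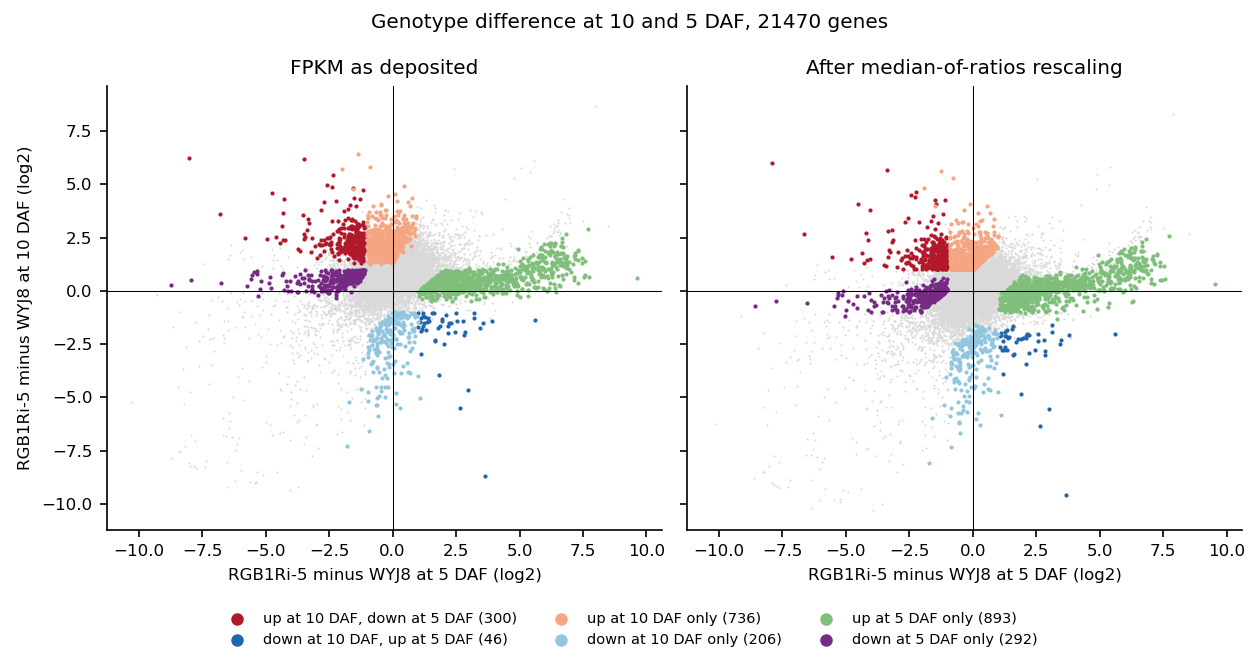
Genotype difference (*RGB1Ri-5* minus *WYJ8*, log2) at 10 DAF on the vertical axis and at 5 DAF on the horizontal axis for 21470 genes, as deposited on the left and after rescaling on the right. Colours mark the 6 classes shared by both scalings, with their gene counts, and grey marks all other genes. The 300 genes up at 10 DAF and down at 5 DAF lie in the upper left quadrant, and the 893 genes up at 5 DAF only extend along the horizontal axis to the right.

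Among the 300 genes up at 10 DAF and down at 5 DAF, the median of group means was 12.3 FPKM in *RGB1Ri-5* and 1.47 FPKM in *WYJ8* at 10 DAF, and 3.03 FPKM in *RGB1Ri-5* and 12.6 FPKM in *WYJ8* at 5 DAF. The wild type thus had its low level at 10 DAF and *RGB1Ri-5* had it at 5 DAF. As deposited, 277 of the 300 genes were higher by at least 1 on the log2 scale at 10 DAF than at 5 DAF in *RGB1Ri-5*. In *WYJ8*, 298 were lower by at least 1. Both held for 275 genes (91.7%), whereas opposite changes of that size, in either direction, were found in 3.74% of all tested genes. The class was defined by the same values, so these counts describe it and are not a test. In 289 of the 300 genes (96.3%) the mean of *RGB1Ri-5* at 10 DAF lay within 1 on the log2 scale of the mean of *WYJ8* at 5 DAF, a share close to the 96.7% of all tested genes. The members were spread over all 12 chromosomes.

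The 46 genes with the opposite reversal had a median of 2.35 FPKM in *RGB1Ri-5* and 11.1 FPKM in *WYJ8* at 10 DAF, and of 19.1 FPKM in *RGB1Ri-5* and 2.94 FPKM in *WYJ8* at 5 DAF. The highest of the 4 group means was that of *RGB1Ri-5* at 5 DAF in 28 genes and that of *WYJ8* at 10 DAF in 18. In 38 of the 46 genes (82.6%) the mean of *RGB1Ri-5* at 10 DAF lay within 1 on the log2 scale of that of *WYJ8* at 5 DAF.

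**Figure D3:**
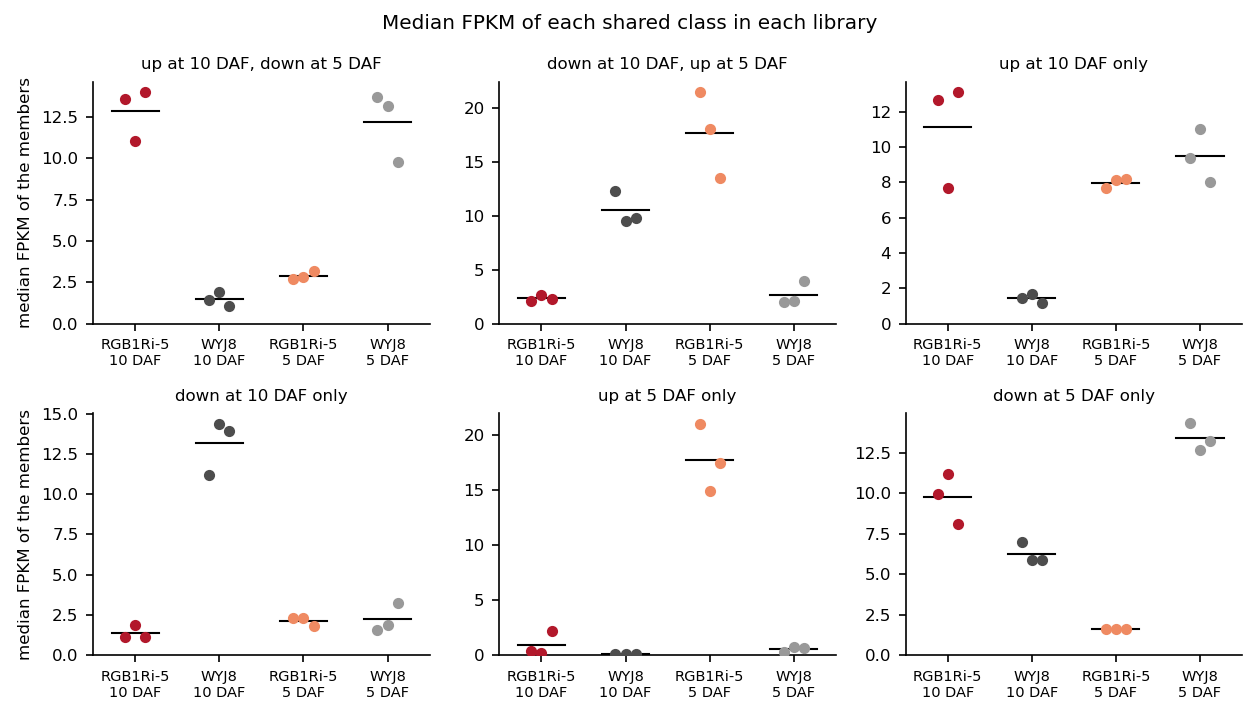
Median FPKM (vertical axis) over the members of each shared class in each of the 12 libraries, with 3 points per group and a line at their mean. In the first panel, the *RGB1Ri-5* libraries at 10 DAF and the *WYJ8* libraries at 5 DAF lie between 9.76 and 14.0 FPKM, and the other 6 libraries lie between 1.07 and 3.19 FPKM.

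The study's list of factors predicted to bind the promoter of *OsYUC11*, an auxin biosynthesis gene, pairs 128 transcription factors with the gene identifiers of the files, and 110 of these were tested. Its entries without such an identifier were not analysed here, so the counts are of part of that list. The list was made by sequence and not by expression. Of the 110 factors, 11 (10.0%) were in a class under both scalings, near the 11.5% of all tested genes. As deposited, the interaction was called higher in 65 of them (59.1%, against 41.4% of all tested genes) and lower in 2. After rescaling it was called higher in 20 (18.2%, against 11.0%) and lower in 7. Without replicate 2 of *RGB1Ri-5* at 10 DAF it was called higher in 70 and lower in 2 as deposited, and higher in 25 and lower in 7 after rescaling. The median interaction of the 110 factors was 1.24 as deposited and 0.30 after rescaling, beside 0.86 and -0.05 over all tested genes.

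Under both scalings 346 of the 21470 tested genes reversed, and of the 110 factors 1 did. This was *MADS58* (LOC_Os05g11414, chromosome 5, 6447183 to 6458100 in Release 7 of the MSU annotation), a C-class MADS-box factor of the AGAMOUS group, whose members specify stamens and carpels. Its FPKM was 77.5, 65.8 and 81.9 in *RGB1Ri-5* and 12.7, 16.0 and 9.08 in *WYJ8* at 10 DAF. At 5 DAF it was 26.8, 29.7 and 29.6 in *RGB1Ri-5* and 69.4, 70.7 and 49.6 in *WYJ8*. The genotypes did not overlap at either stage, and the order was reversed between the stages. The genotype difference was 2.51 ± 0.19 (log2, SE) at 10 DAF and -1.10 ± 0.19 at 5 DAF, and the interaction was 3.61 ± 0.27 (adjusted p = 1.21e-06). After rescaling the differences were 1.56 ± 0.16 at 10 DAF and -1.01 ± 0.16 at 5 DAF. The value at 5 DAF was just inside the limit of 1, and after rescaling *MADS58* was up at 10 DAF only in 3 of the 12 fits with a library left out (replicate 1 or 2 of *WYJ8*, or replicate 1 of *RGB1Ri-5*, at 5 DAF).

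**Figure D4:**
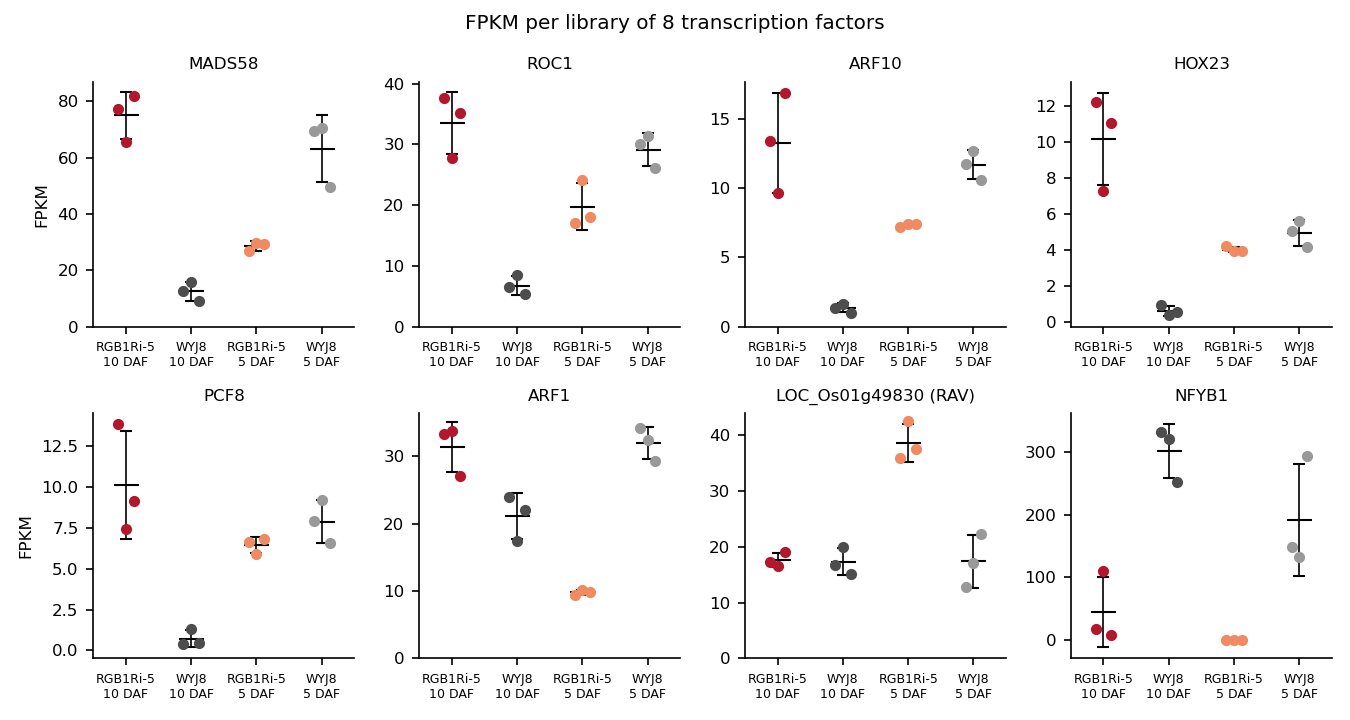
FPKM (vertical axis) of 8 transcription factors in each of the 12 libraries, with the mean and SD of the 3 libraries per group. *MADS58* is high in *RGB1Ri-5* at 10 DAF and, of the *WYJ8* groups, at 5 DAF, *ARF1* is low only in *RGB1Ri-5* at 5 DAF, and *NFYB1* is below *WYJ8* at both stages, with replicate 2 of *RGB1Ri-5* at 10 DAF at 110 FPKM.

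The 18 MADS-box factors of the list share the same predicted sites in the *OsYUC11* promoter. They are shown because factors assigned to identical sites differed in how their transcripts moved, and capitals mark the core of each predicted site as the study's table prints it.
MADS-box site 1: tttttTTTTGg
MADS-box site 2: cCAAAAaaact
ARF site: gAGACA
ROC1 site 1: cacTTAATga
ROC1 site 2: tgaATTAAtca
HOX23 site: tcAATAAttaaa
The first pair is given for all 18 MADS-box factors, and the ARF site for all 24 auxin response factors of the list. Both *ROC1* sites are given for 6 ROC factors. *HOX23* has further predicted sites that are not printed, and its printed sequence is given for 7 HOX factors. These are computer predictions, and no binding was measured in the libraries.

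Among the 18 MADS-box factors, all of which were tested, the interaction was called higher in 14 (77.8%, against 41.4% of all tested genes) and lower in 1 as deposited, and higher in 5 (27.8%, against 11.0%) and lower in 1 after rescaling. When replicate 2 of *RGB1Ri-5* at 10 DAF was left out, it was called higher in 15 and lower in none as deposited, and higher in 8 and lower in 1 after rescaling. Besides *MADS58*, *MADS29* and *MADS21* reversed as deposited. *MADS29* is a B-sister factor needed for breakdown of the nucellus, and *MADS21* is a D-class factor of the ovule. These 2 factors were named after their values were seen. *MADS29* had 38.1, 30.7 and 34.4 FPKM in *RGB1Ri-5* and 14.4, 17.4 and 10.9 FPKM in *WYJ8* at 10 DAF, and 6.48, 6.41 and 7.37 FPKM in *RGB1Ri-5* and 39.1, 44.2 and 33.0 FPKM in *WYJ8* at 5 DAF. The FPKM as deposited did not overlap between genotypes at either stage. Its difference at 10 DAF was 1.24 ± 0.16 as deposited and 0.29 ± 0.14 after rescaling, which was not called (adjusted p = 0.0889), so that after rescaling it was down at 5 DAF only. Its interaction was called under both scalings, at 3.59 ± 0.23 and 2.53 ± 0.19. *MADS21* showed the same split, with a difference at 10 DAF of 1.13 ± 0.13 as deposited and 0.16 ± 0.10 after rescaling, and at 5 DAF of -1.40 ± 0.13 and -1.31 ± 0.10.

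The 3 MADS-box factors with the highest mean FPKM were *MADS8*, *MADS7* and *MADS15*. *MADS8* and *MADS7* are SEPALLATA-like factors of floral organ identity. *MADS8* averaged 267 ± 46 FPKM in *RGB1Ri-5* and 85.2 ± 17.6 in *WYJ8* at 10 DAF, and 161 ± 13 in *RGB1Ri-5* and 224 ± 29 in *WYJ8* at 5 DAF (SD, n = 3 each). Its interaction was 2.11 ± 0.25 as deposited and 1.03 ± 0.20 after rescaling, called in both fits. *MADS7* averaged 211 ± 47 FPKM in *RGB1Ri-5* and 57.7 ± 13.1 in *WYJ8* at 10 DAF, and its interaction was 2.39 ± 0.29 as deposited and 1.32 ± 0.22 after rescaling. Both were up at 10 DAF only as deposited, whereas after rescaling neither stage alone passed the limit. *MADS15*, of the APETALA1 and FRUITFULL group, averaged 112 ± 35 FPKM in *RGB1Ri-5* and 14.6 ± 3.4 in *WYJ8* at 10 DAF, and 163 ± 14 in *RGB1Ri-5* and 94.0 ± 19.8 in *WYJ8* at 5 DAF. Its interaction of 2.03 ± 0.33 as deposited was 0.98 ± 0.27 after rescaling, just under the limit. *MADS2*, a PISTILLATA-like factor, went the other way among the family members, with an interaction of -1.11 as deposited and -2.08 after rescaling, and was named after its values were seen. As deposited, the interaction of *MADS2* was not called without replicate 2 of *RGB1Ri-5* at 10 DAF. *MADS2* had 69.1, 63.2 and 78.0 FPKM in *RGB1Ri-5* at 5 DAF, against 11.8, 14.8 and 11.7 FPKM in *WYJ8*.

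**Figure D5:**
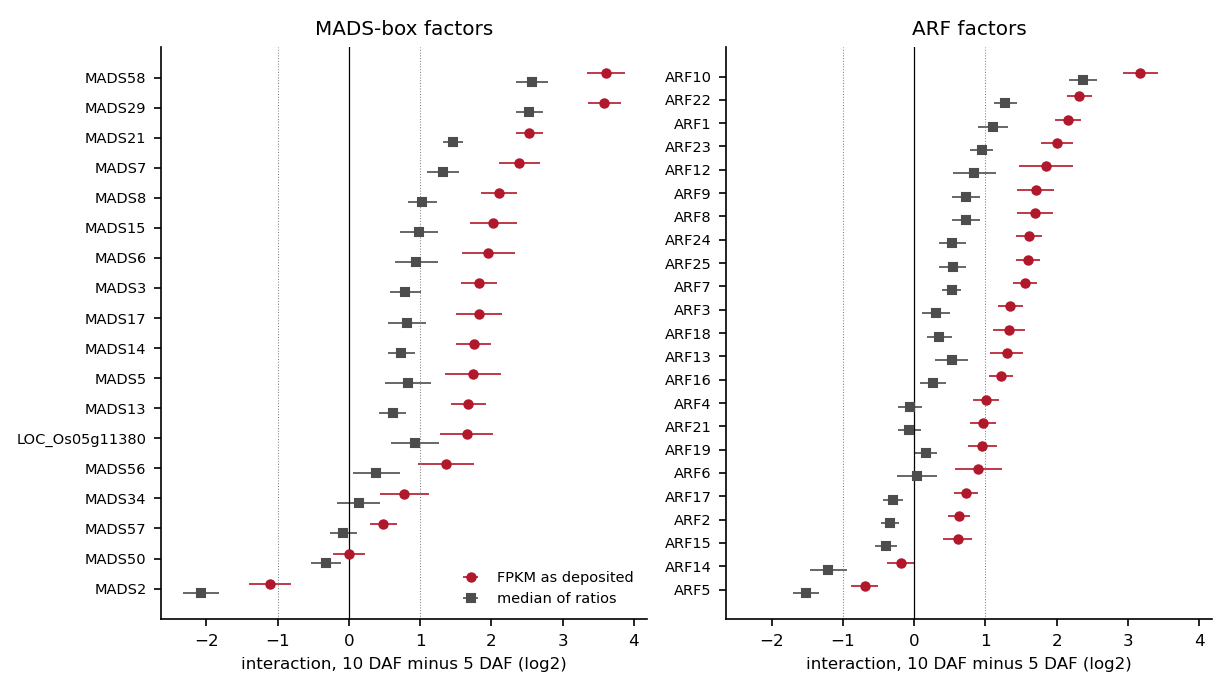
Interaction (log2, genotype difference at 10 DAF minus that at 5 DAF, with its SE) of the 18 MADS-box factors on the left and of 23 ARF factors on the right, as deposited (circles) and after median-of-ratios rescaling (squares). Dotted lines mark the limit of 1 in either direction. *MADS58* and *MADS29* lie highest among the MADS-box factors under both scalings, and *ARF10* lies highest among the ARF factors. *MADS2*, *ARF5* and *ARF14* lie below 0 under both.

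Several of these factors also serve as markers of tissues other than endosperm. The summed FPKM of *MADS29*, *MADS13* and *MADS21*, all 3 of which were measured and mark nucellus, ovule and seed coat, was 171 to 236 in *RGB1Ri-5* and 69.7 to 98.5 in *WYJ8* at 10 DAF, and 93.5 to 106 in *RGB1Ri-5* and 168 to 207 in *WYJ8* at 5 DAF. The summed FPKM of *MADS14*, *MADS15* and *MADS2*, all 3 measured and marking husk and floral organs, was 119 to 213 in *RGB1Ri-5* and 26.1 to 36.6 in *WYJ8* at 10 DAF, and 280 to 293 in *RGB1Ri-5* and 127 to 176 in *WYJ8* at 5 DAF. *OSH1*, a KNOX factor of the embryo and shoot meristem, was at 4.45 to 11.6 FPKM in *RGB1Ri-5* and 3.27 to 3.68 FPKM in *WYJ8* at 10 DAF, and at 12.01 to 12.9 FPKM in *RGB1Ri-5* and 9.63 to 10.5 FPKM in *WYJ8* at 5 DAF. None of these markers was at 0 in any group. The husk sum pools *MADS15* and *MADS2*, whose interactions had opposite signs. The lists as planned also held *MADS1* for the husk, and *VP1* and oleosins for the embryo. These were left out because no source used here pairs them with MSU identifiers. As deposited, the sums did not overlap between the genotypes at either stage, and sums after rescaling were not computed. After rescaling, the differences of *MADS29* and *MADS21* at 10 DAF were not called, whereas that of *MADS15* was. How far the separation of the sums at 10 DAF depends on the scaling is therefore not known. The part of tissue composition in the classes was not tested.

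Among genes called at 10 DAF only, the balance of directions followed the scaling. Under both scalings, 736 genes (3.43% of those tested) were up at 10 DAF only and 206 genes (0.959%) were down at 10 DAF only. As deposited the counts were 4643 up and 206 down, and after rescaling 786 up and 680 down. Of the 4643 genes up as deposited, 2936 passed no criterion after rescaling. Without replicate 2 of *RGB1Ri-5* at 10 DAF, 966 genes were up and 219 down at 10 DAF only under both scalings, and 719 of the 736 remained in their class.

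The 736 genes up at 10 DAF only had a median of 11.2 FPKM in *RGB1Ri-5* and 1.42 FPKM in *WYJ8* at 10 DAF, and of 8.05 FPKM in *RGB1Ri-5* and 9.49 FPKM in *WYJ8* at 5 DAF. As deposited, 719 of these genes were lower by at least 1 on the log2 scale at 10 DAF than at 5 DAF in *WYJ8*. In *RGB1Ri-5*, 83 were higher and 1 was lower by that much. Over all 21470 tested genes, 7256 were lower by that much in *WYJ8*, and 1703 were higher and 2046 lower in *RGB1Ri-5*. In FPKM as deposited, *WYJ8* at 10 DAF was thus the group that stood apart. The class was selected on these values, so the counts describe it and are not a test. Stage changes after rescaling were not computed. At 5 DAF the genotype difference was under 0.5 in size under both scalings for 460 of the 736 genes (62.5%). For the 206 genes down at 10 DAF only, the medians were 1.33 FPKM in *RGB1Ri-5* and 13.3 FPKM in *WYJ8* at 10 DAF, and 2.09 FPKM in *RGB1Ri-5* and 2.23 FPKM in *WYJ8* at 5 DAF. *WYJ8* at 10 DAF had the highest of the 4 means in 202 of the 206 genes. As deposited, 176 were higher there by at least 1 on the log2 scale than in *WYJ8* at 5 DAF. Such a rise in *WYJ8* was found in 490 of the 21470 tested genes. For 123 of the 206 genes (59.7%), the genotype difference at 5 DAF was under 0.5 in size under both scalings.

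Of the 110 factors, 8 (7.3%, against 3.43% of all tested genes) were up at 10 DAF only under both scalings and none was down. They included 4 of the 26 tested HD-ZIP factors (homeodomain proteins with a leucine zipper) and 2 of the 6 TCP factors, and *ROC1* had the highest FPKM of the 8. *ROC1* (LOC_Os08g08820, chromosome 8, 5109238 to 5116781) belongs to the GLABRA2-like HD-ZIP IV group, and its transcript marks the outermost cell layer of the rice embryo. It had 37.7, 27.8 and 35.1 FPKM in *RGB1Ri-5* and 6.53, 8.45 and 5.38 FPKM in *WYJ8* at 10 DAF. At 5 DAF, values were 17.1, 24.2 and 18.0 FPKM in *RGB1Ri-5* and 30.0, 31.3 and 26.1 FPKM in *WYJ8*. The genotypes did not overlap at either stage, and *WYJ8* at 10 DAF was lowest. The difference was 2.16 ± 0.18 at 10 DAF and -0.55 ± 0.18 at 5 DAF, and the interaction was 2.71 ± 0.25 (adjusted p = 4.87e-06) as deposited and 1.71 ± 0.20 (adjusted p = 6.32e-05) after rescaling. The difference of *ROC1* at 5 DAF had an adjusted p of 0.0208, so its place in the class rests on the fold limit and not on an absent difference. Its 2 predicted promoter sites are those printed above.

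The other 7 factors had means under 10 FPKM and were named after their values were seen, except *ARF10*, which the rule for ARFs in a shared class selects. *ROC3*, of the same HD-ZIP IV group as *ROC1*, averaged 12.8 ± 1.1 FPKM in *RGB1Ri-5* and 2.00 ± 0.93 in *WYJ8* at 10 DAF, with an interaction of 3.08 ± 0.27 as deposited and 2.23 ± 0.27 after rescaling. At 5 DAF *ROC3* averaged 5.71 ± 0.54 FPKM in *RGB1Ri-5* and 11.1 ± 1.5 in *WYJ8* without overlap, and the difference of -0.84 ± 0.19 (adjusted p = 0.00286) was under the fold limit, so its place in the class, like that of *ROC1*, rests on the fold limit. *HOX23*, of the HD-ZIP I group, had 12.2, 7.30 and 11.1 FPKM in *RGB1Ri-5* and 0.948, 0.416 and 0.538 FPKM in *WYJ8* at 10 DAF. At 5 DAF it had 4.21, 3.93 and 3.96 FPKM in *RGB1Ri-5* and 5.08, 5.64 and 4.20 FPKM in *WYJ8*. The 2 genotypes differed at 5 DAF by -0.24 ± 0.19 (adjusted p = 0.303), and the interaction was 3.0 ± 0.26 as deposited and 2.36 ± 0.22 after rescaling. *HOX21* averaged 9.14 ± 2.45 FPKM in *RGB1Ri-5* and 0.678 ± 0.346 in *WYJ8* at 10 DAF, and its difference at 5 DAF was 0.00 ± 0.22.

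The TCP factors *PCF8* and *PCF3*, of a family known for control of cell proliferation, were also in this class. *PCF8* had 13.9, 7.46 and 9.13 FPKM in *RGB1Ri-5* and 0.373, 1.32 and 0.476 FPKM in *WYJ8* at 10 DAF, with an interaction of 2.94 ± 0.33 as deposited and 2.28 ± 0.34 after rescaling. *PCF3* averaged 7.24 ± 3.84 FPKM in *RGB1Ri-5* and 0.658 ± 0.059 in *WYJ8* at 10 DAF. All 6 TCP factors tested were called higher in the interaction as deposited, where 41.4% of all tested genes were, and 3 of them after rescaling, where 11.0% were. Both counts were the same without replicate 2 of *RGB1Ri-5* at 10 DAF. *PCF6* reversed as deposited (1.62 ± 0.21 at 10 DAF and -1.67 ± 0.21 at 5 DAF) and was down at 5 DAF only after rescaling. An SBP-domain factor without a symbol in the list (LOC_Os07g32170) averaged 5.64 ± 1.96 FPKM in *RGB1Ri-5* and 0.592 ± 0.169 in *WYJ8* at 10 DAF. Its interaction was 1.67 ± 0.29 as deposited and 1.06 ± 0.25 after rescaling, and after rescaling its interaction was not called in 4 of the 12 fits with a library left out (replicate 1 of *WYJ8* at 10 DAF, replicate 1 or 3 of *RGB1Ri-5* at 10 DAF, or replicate 2 of *RGB1Ri-5* at 5 DAF).

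Auxin response factors (ARFs) bind auxin response elements and activate or repress auxin-responsive genes. Of the 24 listed, 23 were tested. The interaction was called higher in 15 (65.2%, against 41.4% of all tested genes) and lower in none as deposited. After rescaling it was called higher in 3 (13.0%, near the 11.0% of all tested genes) and lower in 2. The ARFs called higher without replicate 2 of *RGB1Ri-5* at 10 DAF were 18 as deposited and 4 after rescaling. The median over the 23 ARFs was 1.33 as deposited and 0.36 after rescaling. *ARF10* (LOC_Os04g43910, chromosome 4, 26013418 to 26016187) was up at 10 DAF only under both scalings, with 13.4, 9.60 and 16.8 FPKM in *RGB1Ri-5* and 1.38, 1.67 and 1.02 FPKM in *WYJ8* at 10 DAF. The values at 5 DAF were 7.22, 7.37 and 7.41 FPKM in *RGB1Ri-5* and 11.7, 12.7 and 10.6 FPKM in *WYJ8*. The genotypes did not overlap at either stage, and the difference was 2.57 ± 0.18 at 10 DAF and -0.60 ± 0.18 at 5 DAF, the second under the fold limit. *ARF10* had an interaction of 3.17 ± 0.25 as deposited and 2.38 ± 0.19 after rescaling.

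The 3 ARFs with the highest mean FPKM changed class with the scaling. *ARF24* averaged 94.4 ± 3.9 FPKM in *RGB1Ri-5* and 73.7 ± 9.3 in *WYJ8* at 10 DAF, and 41.0 ± 4.2 in *RGB1Ri-5* and 99.1 ± 11.8 in *WYJ8* at 5 DAF. Its interaction was 1.61 ± 0.18 as deposited and 0.54 ± 0.19 after rescaling. *ARF4* had an interaction of 1.01 ± 0.18 as deposited and -0.06 ± 0.17 after rescaling, so its direction followed the scaling. *ARF23* was up at 10 DAF only as deposited (difference of 1.15 ± 0.16 at 10 DAF) and in no class after rescaling (0.18 ± 0.11).

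Under both scalings, 893 genes (4.16% of those tested) were up at 5 DAF only and 292 (1.36%) were down at 5 DAF only. As deposited the counts were 989 up and 925 down, and after rescaling 1446 up and 557 down. Of the 925 genes down as deposited, 143 were called in the same direction at both stages after rescaling, 66 were called so with a called interaction, 272 were called at 1 stage without a called interaction and 130 passed no criterion. Without replicate 2 of *RGB1Ri-5* at 10 DAF, 652 genes were up and 228 down at 5 DAF only under both scalings, and 635 of the 893 and 201 of the 292 genes remained in their class.

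The 893 genes up at 5 DAF only were highest in *RGB1Ri-5* at 5 DAF and low in the other groups. Their medians were 1.10 FPKM in *RGB1Ri-5* and 0.110 FPKM in *WYJ8* at 10 DAF, and 18.3 FPKM in *RGB1Ri-5* and 0.543 FPKM in *WYJ8* at 5 DAF. *RGB1Ri-5* at 5 DAF had the highest of the 4 means in all 893 genes. Within *RGB1Ri-5*, 880 of the genes were lower by at least 1 on the log2 scale at 10 DAF than at 5 DAF. Over all 21470 tested genes, 2046 were lower by that much. The class was selected on the same values, so these counts describe it and are not a test. How many members passed the filter of 1 FPKM only through *RGB1Ri-5* at 5 DAF was not counted. Of the 893 genes, 194 were missing from the files of all 3 *WYJ8* libraries at 10 DAF and 33 from those of all 3 *WYJ8* libraries at 5 DAF, and 429 were missing from at least 1 library. Missing values were set to 0 FPKM. At 10 DAF the median over the members was 0.399, 0.196 and 2.21 FPKM in the *RGB1Ri-5* libraries, so replicate 3 was above the others, against 0.095, 0.121 and 0.089 FPKM in *WYJ8*. The *RGB1Ri-5* medians were thus all above those of *WYJ8* at 10 DAF as well. Differences between values this low are understated on log2(FPKM + 1), so the absence of a call at 10 DAF may depend on the added 1. The class shared by both scalings was not recounted with a smaller added value. Under both scalings, 366 genes (41.0%) had a difference under 0.5 in size at 10 DAF.

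The 1 listed factor in that class was a protein with AP2/ERF and B3 domains of the RAV type (LOC_Os01g49830, chromosome 1, 28619484 to 28621118). It had 17.3, 16.6 and 19.1 FPKM in *RGB1Ri-5* and 16.7, 20.0 and 15.2 FPKM in *WYJ8* at 10 DAF. At 5 DAF it had 35.9, 42.5 and 37.5 FPKM in *RGB1Ri-5* and 12.7, 17.0 and 22.3 FPKM in *WYJ8*. The genotypes overlapped at 10 DAF and did not overlap at 5 DAF. The difference was 0.04 ± 0.17 at 10 DAF and 1.14 ± 0.17 at 5 DAF, and the interaction was -1.10 ± 0.24 (adjusted p = 0.00162) as deposited and -2.13 ± 0.26 after rescaling. After rescaling the difference at 10 DAF was -0.91 ± 0.18 (adjusted p = 0.00145), under the fold limit, so the small difference at 10 DAF depended on the scaling. Without replicate 1 of *WYJ8* at 5 DAF it was in no class as deposited.

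The 292 genes down at 5 DAF only had medians of 9.96 FPKM in *RGB1Ri-5* and 6.47 FPKM in *WYJ8* at 10 DAF, and of 1.60 FPKM in *RGB1Ri-5* and 13.5 FPKM in *WYJ8* at 5 DAF. The highest of the 4 means was that of *WYJ8* at 5 DAF in 261 genes (89.4%). As deposited, 239 of the 292 genes were higher by at least 1 on the log2 scale at 10 DAF than at 5 DAF in *RGB1Ri-5*. In *WYJ8*, 135 were lower by that much. Over all 21470 tested genes, 1703 were higher by that much in *RGB1Ri-5* and 7256 were lower in *WYJ8*. These counts describe a class selected on the same values and are not a test. Only 34 of the 292 (11.6%) had a difference at 10 DAF under 0.5 in size under both scalings, so this class holds few genes with a clearly small difference at 10 DAF.

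*ARF1* (LOC_Os01g13520, chromosome 1, 7546885 to 7551996) was the 1 listed factor down at 5 DAF only under both scalings. It had 33.3, 33.8 and 27.1 FPKM in *RGB1Ri-5* and 24.0, 17.4 and 22.0 FPKM in *WYJ8* at 10 DAF. The 5 DAF libraries had 9.40, 10.2 and 9.81 FPKM in *RGB1Ri-5* and 34.2, 32.5 and 29.4 FPKM in *WYJ8*. The 3 *RGB1Ri-5* libraries at 5 DAF were the lowest of the 12. The difference was 0.56 ± 0.13 at 10 DAF and -1.61 ± 0.13 at 5 DAF, and the interaction of *ARF1* was 2.16 ± 0.18 (adjusted p = 3.03e-06) as deposited and 1.11 ± 0.20 (adjusted p = 0.00121) after rescaling. At 10 DAF the sign of the difference depended on the scaling, with -0.40 ± 0.14 after rescaling. Without replicate 2 of *RGB1Ri-5* or replicate 2 of *WYJ8* at 10 DAF, the rescaled interaction was not called.

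*NFYB1* (LOC_Os02g49410), the endosperm-specific B subunit of the CCAAT-binding factor NF-Y, did not reverse and was not at 1 stage only. It had 17.5, 110 and 8.04 FPKM in *RGB1Ri-5* and 331, 320 and 252 FPKM in *WYJ8* at 10 DAF. At 5 DAF it had 0.155, 0.607 and 0.0754 FPKM in *RGB1Ri-5* and 148, 133 and 294 FPKM in *WYJ8*. All *RGB1Ri-5* libraries were below all *WYJ8* libraries at both stages, and replicate 2 at 10 DAF was the highest of them. The difference of *NFYB1* was -3.50 ± 0.68 at 10 DAF and -7.16 ± 0.68 at 5 DAF. Its interaction of 3.66 ± 0.97 was called as deposited (adjusted p = 0.00486), whereas 2.46 ± 1.05 after rescaling was not (adjusted p = 0.0783).

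The genes with the largest interaction in 4 of the classes, taken from genes that averaged 10 FPKM or more and whose genotypes did not overlap at the called stages, had no name in the sources used here. LOC_Os01g55690 (up at 10 DAF, down at 5 DAF) had 8.30, 3765 and 11.5 FPKM in *RGB1Ri-5* at 10 DAF and was missing from the files of all 3 *WYJ8* libraries, where it was set to 0. At 5 DAF the libraries had 7.79, 16.8 and 5.47 FPKM in *RGB1Ri-5* and 1557, 1524 and 7186 FPKM in *WYJ8*. Its mean at 10 DAF was thus set by replicate 2, although it was also in the class without that library. In either case its call at 10 DAF, and so its reversal, rests on the missing values set to 0. With them left as missing, its difference at 10 DAF cannot be computed. LOC_Os10g05750 (down at 5 DAF only) had 575, 896 and 332 FPKM in *RGB1Ri-5* and 603, 537 and 294 FPKM in *WYJ8* at 10 DAF, and 1.20, 0.847 and 1.15 FPKM in *RGB1Ri-5* and 867, 805 and 986 FPKM in *WYJ8* at 5 DAF. Its genotypes overlapped at 10 DAF. After rescaling and without replicate 2 of *RGB1Ri-5* or replicate 3 of *WYJ8* at 10 DAF, it was called lower at both stages.

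In the negative direction, LOC_Os01g03360 (down at 10 DAF, up at 5 DAF) had 2.13, 1.47 and 1.503 FPKM in *RGB1Ri-5* and 53.0, 242 and 130 FPKM in *WYJ8* at 10 DAF. At 5 DAF it had 32.1, 35.1 and 27.0 FPKM in *RGB1Ri-5* and 1.48, 1.53 and 21.0 FPKM in *WYJ8*, where replicate 3 stood near the *RGB1Ri-5* libraries. After rescaling and without replicate 1 of *WYJ8* at 5 DAF, it was down at 10 DAF only. LOC_Os01g50910 (down at 10 DAF only) had 1.43, 3.12 and 0.382 FPKM in *RGB1Ri-5* and 42.4, 116 and 92.7 FPKM in *WYJ8* at 10 DAF, and 10.4, 13.3 and 4.27 FPKM in *RGB1Ri-5* and 2.25, 2.25 and 7.35 FPKM in *WYJ8* at 5 DAF. Its difference at 5 DAF was 1.10 with an adjusted p of 0.104. In the fits without replicate 3 of *WYJ8* or replicate 3 of *RGB1Ri-5* at 5 DAF it was called up at 5 DAF and so counted as reversed.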

How the data were processed

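Caryopses of *RGB1Ri-5* and *WYJ8* at 10 and 5 DAF were sequenced by Illumina RNA-seq, with 3 libraries per group. The authors filtered the reads, mapped them to Release 7 of the MSU rice annotation with TopHat2 2.1.0, and deposited FPKM per gene from Cufflinks 2.1.1. These are not counts, so no count test was run, and no interval that needs read numbers is given. Start positions in the files count from 0 and are printed here counted from 1. Genes missing from a library were set to 0 FPKM.

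Values of the 21470 genes that averaged 1 FPKM or more were fitted as log2(FPKM + 1) with limma 3.58.1 in R 4.3.3 (means of 4 groups, 12 libraries, empirical Bayes, variance trended on mean, p-values adjusted after Benjamini and Hochberg over every tested gene). Fold changes on this scale understate changes of low genes. Standard errors are from the model, SD are of FPKM. No label states that the libraries of a group came from separate plants, so p-values measure the spread between these libraries, which may be technical. The fit was tested on simulated data.

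The classes and lists were chosen with earlier results of these data known. Named genes are *NFYB1*, in each shared class up to 5 named genes with the largest interaction (smaller of both scalings) among those that averaged 10 FPKM or more with the genotypes apart, and in the MADS-box and ARF lists the 3 with the highest mean and any in a shared class. Where no name was at hand, the first gene of 4 classes is given. Symbols come from the 128 entries of the study's list of predicted factors that give an MSU identifier. *RGB1* itself, storage, starch and other gene groups, endosperm markers and promoters were not analysed here, since no table used here pairs them with MSU identifiers.

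Alternatives were a pseudocount of 0.1, all genes above 0, a mean of at least 5 FPKM, median-of-ratios rescaling, quantile normalization, equal totals of 1000000 with and without the 100 highest genes, a replicate block, limma without the trend, unlisted values as missing, no fold limit, and each library left out. Leaving out libraries from the classes shared by both scalings, and replicate 2 of *RGB1Ri-5* at 10 DAF from the factor lists, was chosen after seeing the data.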

Additional observations from a re-analysis of the deposited data

Results flagged for a closer look

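Each gene below had a genotype difference that differed between 10 and 5 DAF, by the interaction test over all genes under both scalings, and its log2 interaction as deposited is given. Among MADS-box factors it was 3.61 in *MADS58*, 2.39 in *MADS7* and 2.11 in *MADS8*. Among ARFs it was 3.17 in *ARF10* and 2.16 in *ARF1*. Among HD-ZIP factors it was 3.08 in *ROC3*, 3.0 in *HOX23*, 2.71 in *ROC1* and 2.58 in *HOX21*. The TCP factors *PCF8* and *PCF3* had 2.94 and 1.95, and the SBP-domain factor LOC_Os07g32170 had 1.67. The RAV-type factor LOC_Os01g49830 had -1.10. Among genes without a name, LOC_Os10g05750 had 9.03, LOC_Os01g03360 had -8.12 and LOC_Os01g50910 had -6.12. The genes were chosen among called genes or for their class, so these values are not independent evidence of the classes.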

How the results depend on the processing

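As deposited, the interaction was called higher in 8882 and lower in 1491 genes, 671 genes were up at 10 DAF and down at 5 DAF, 47 the reverse, 1914 at 5 DAF only and 4849 at 10 DAF only. After median-of-ratios rescaling they were 2370, 2858, 300, 139 and 2003, with 1466 at 10 DAF only, and after quantile normalization 2818, 2606, 319, 138, 2261 and 1261. Equal totals without the 100 highest genes gave 5598 higher, 99 in the smaller class of reversal, and 2590 at 10 DAF only. Genes of at least 5 FPKM gave 872 lower, 438 and 29 reversed and 1196 at 5 DAF only, with fewer genes tested. With no fold limit there were 14430 higher, 4091 and 133 reversed and 7920 at 10 DAF only, and a pseudocount of 0.1 gave 74 in the smaller class of reversal. Leaving out 1 library gave 8297 to 9800 higher, 1383 to 1591 lower, 606 to 760 and 38 to 58 reversed, 1560 to 2123 at 5 DAF only and 4199 to 5967 at 10 DAF only. For the classes shared by both scalings the ranges were 266 to 337 and 36 to 58 reversed, 635 to 966 up and 193 to 233 down at 10 DAF only, and 652 to 1025 up and 228 to 342 down at 5 DAF only. The replicate block gave 8851 higher and 1486 lower and changed no count by over 1.5 times. Same-numbered libraries had correlations of deviations of -0.27 to -0.01 between the genotypes at 1 stage, of -0.10 to 0.16 between the stages in *RGB1Ri-5* and of 0.11 to 0.25 in *WYJ8*. As not every pair was over 0.1, the numbers were not taken as pairs. Of 481 alternative values of named genes, 13 lost the call and 1 changed sign, *ARF4* at -0.057 after median-of-ratios rescaling. Apart from that of the gene filter, the cause of these changes was not tested. FPKM without read numbers leave the precision of low values unknown.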
